A study of Mus musculus with 47 samples.

Results

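Heat shock proteins and metallothioneins were followed as 10 listed genes in mice on a methionine-restricted diet (MR) and on a control diet (CON). The genes were taken by symbol, not by their values: Hspb1, Hspa1a, Hspa1b, Hspa8, Dnajb1, Hsph1, Hsp90aa1, Hspd1, Mt1 and Mt2, which are 10 of the 26608 genes in each table of counts. The animals were male C57BL/6J mice that began the diets at 5 weeks of age, ate them freely for 11 weeks at 23 °C and were fasted for 5 h before the tissues were taken. Libraries came from brown adipose tissue (BAT), inguinal white adipose tissue (IWAT), liver and skeletal muscle (SM), with 6 MR and 6 CON libraries per tissue, except that muscle had 5 MR libraries, and the MR and CON animals of each tissue shared strain, sex, age and fasting. Each library is from 1 animal, and the same animal numbers recur in the 4 tissues, so that 12 mice gave 47 libraries. The labels do not give the methionine content of the diets.

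Heat shock proteins are molecular chaperones that bind unfolded proteins, and heat shock factors, the transcription factors that bind paired GAA and TTC units in promoters, raise many of them after stress. Hspa1a and Hspa1b are neighbouring genes for the stress-inducible HSP70, Hspa8 is its constitutive relative, Dnajb1 is a J-domain co-chaperone of that family, Hsph1 is a nucleotide exchange factor for it, Hsp90aa1 is the stress-inducible cytosolic HSP90, Hspb1 is a small heat shock protein and Hspd1 is the chaperonin of the mitochondrial matrix. Metallothioneins Mt1 and Mt2 bind zinc and copper, and in liver their genes are known to respond to zinc, glucocorticoids and the acute phase of inflammation.

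The assay was SAGE sequencing on the SOLiD platform, in which 1 short tag beside the CATG site nearest the 3′ end stands for a transcript, so that counts do not grow with transcript length. The tags predicted for the measured genes are shown because SAGE counts tags of this kind. The deposited counts are per gene, and the printed tags were not compared with the reads. Each printed tag is the CATG site in capitals and the 23 bases after it. It was read from 1 GENCODE vM1 transcript per gene, of the NCBIM37 build.
Hspb1: CATGgctacatctctcggtgcttcacc
Hspa1a: CATGtgttcagtttttacacaaccatc
Hspa1b: CATGtctacactgccaccctgtgtaca
Hspa8: CATGgaataataaaactatttaaattg
Hsp90aa1: CATGaaatcctgtcttggaggctataa
Dnajb1: CATGccttgttcctcctccccagaaga
Hsph1: CATGtgatcattgtgaacacctcgtga
Hspd1: CATGagagttcagaagcagcctttctg
Mt2: CATGtaactgacaataaaagccgttga
None of these 9 tags was found in the protein-coding transcripts of another gene, and other transcripts were not searched. The Hspa1a and Hspa1b tags differ and each matched 1 place in the genome, whereas the Hspa8 tag matched 7 places and those of Hspb1, Hspd1 and Mt2 matched 2 places each. The labels say that fragments were counted where they mapped uniquely to RefSeq genes. The levels of Hspa8, Hspb1, Hspd1 and Mt2 may therefore leave out tags, which was not tested. The Hspb1 tag lies in the coding sequence and the other 8 lie in the 3′ untranslated region.

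Mt1 was at 0 counts in all 47 libraries, where 3 counts correspond to 0.188 to 0.625 counts per 1000000 counts (CPM). Neither of its 2 annotated protein-coding transcripts holds a CATG site. Of 113 genes with no CATG in any protein-coding transcript, 93 (82.3%) were at 0 in every library. Of 20657 genes with a site, 3748 (18.1%) were. No level, comparison or correlation with Mt2 can be given for Mt1, and 9 members remained for testing in every tissue.

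The libraries, named here by diet and animal number, held 4887004 to 13117537 counts each, and CPM here are counts over library sizes scaled by TMM across all 47 libraries. In 4 libraries the gene ranks stood apart, with a median Spearman correlation under 0.8 with the other libraries of their tissue: MR3116 in IWAT (0.647), CON3106 (0.628) and CON3115 (0.719) in IWAT, and MR3101 in muscle (0.582). Several members were at or near 0 in these libraries while others were high, so results in IWAT and muscle that rest on them are given with and without them. In whole tissue, fewer cells of a type and less RNA per cell cannot be told apart.

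The first comparison asked whether the diet changed these genes within each tissue. Hspb1 was higher in MR livers, at 2.17 times the CON level, and it was the only one of the 9 measured members that passed the test in any tissue. In liver Hspa1b and Hsph1 had fold changes of 1.87 and 1.43 and did not pass. In brown fat the Mt2 value was 2.52 times that of CON and did not pass, and no member passed in IWAT or muscle. The test was edgeR's quasi-likelihood test within each tissue with Benjamini-Hochberg adjustment over all genes tested, and a gene passed at an adjusted p under 0.05. It called 1 of 9 members in liver, where 2.26% of 10969 genes were called and 1.05% were called as higher. It called 0 of 9 in BAT, where 1.11% of 10791 genes were called. It called 0 of 9 in IWAT, where 0.027% of 11101 genes were called, and 0 of 9 in muscle, where 0% of 11225 genes were called. At an unadjusted p under 0.05 there were 3 members in liver, 1 in BAT, 0 in IWAT and 1 in muscle, where 14.5%, 13.6%, 8.78% and 6.32% of all genes lay under that value. DESeq2 called 2 members in liver, 1 in BAT, 0 in IWAT and 0 in muscle, where it called 4.47%, 2.94%, 2.79% and 0.0178% of genes. The median log2 fold change, MR over CON, of the 9 members was 0.13 in liver, 0.15 in BAT, 0.21 in IWAT and -0.14 in muscle, against 0.01, 0.00, -0.02 and -0.04 over all genes tested.

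**Figure D1:**
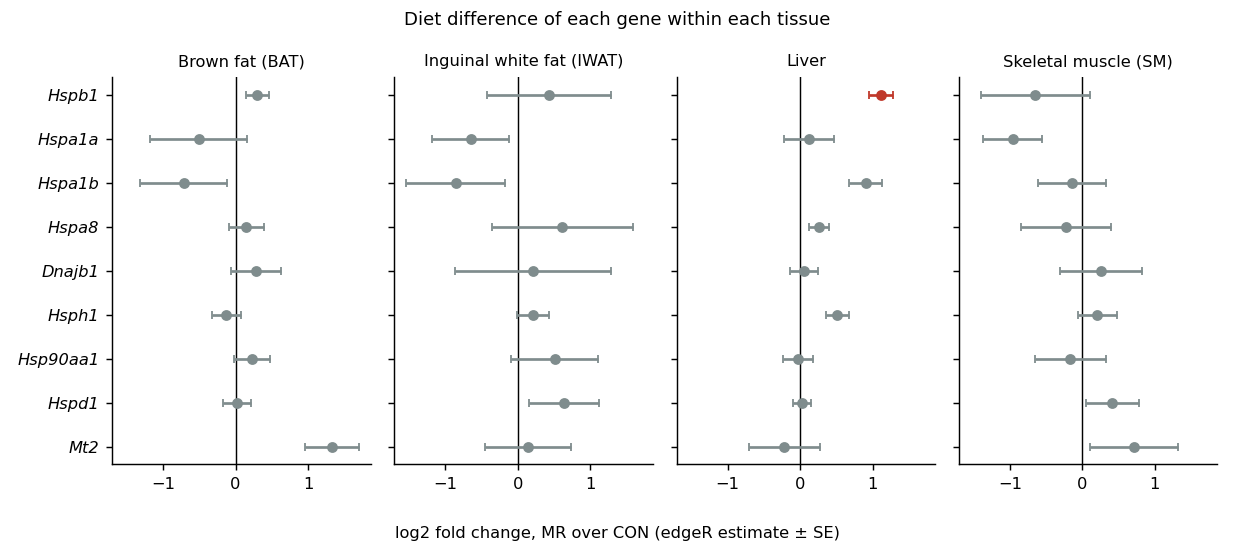
Log2 fold change, MR over CON, of the 9 measured genes (rows) in each tissue (panels), as the edgeR estimate with its standard error. Red marks the gene that passed at an adjusted p under 0.05, Hspb1 in liver at 1.12, and grey marks the others, among them Mt2 in brown fat at 1.33.

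Hspb1, a small heat shock protein that holds unfolded proteins in a soluble state, was measured in liver at 19.4 CPM (lowest), 34.7 CPM (median) and 38.1 CPM (highest) in MR animals, against 12.9, 13.7 and 20.6 CPM in CON animals. Of the MR libraries 5 lay above every CON library, and MR3102 lay within the CON range. Its log2 fold change was 1.12 ± 0.16 (SE) with an adjusted p of 0.00138 by edgeR, the gene ranked 40 of all genes by p, and all 6 MR libraries lay above the CON mean. Leaving out each of the 12 libraries gave 1.07 to 1.22 with adjusted p between 0.000258 and 0.00619. In a fit of all 47 libraries, which share 1 estimate of the spread, the log2 fold change was 1.10 ± 0.62 with an adjusted p of 1. That fit includes the 4 libraries that stand apart. In it the diet difference of Hspb1 in liver minus that in BAT was 0.78 ± 0.86, against 0.77 ± 0.28 without them, and neither passed.

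Hspa1b, an inducible HSP70 gene, had 23.8, 33.7 and 48.2 CPM (lowest, median, highest) in MR livers, against 9.98, 20.2 and 25.5 CPM in CON livers. Of the MR libraries, MR3116 alone lay within the CON range. The log2 fold change of 0.90 ± 0.23 (SE) had an adjusted p of 0.0553 by edgeR, DESeq2 gave 0.00828, and all 6 MR libraries lay above the CON mean. Its neighbour Hspa1a had 0.403, 1.83 and 2.01 CPM in MR livers, against 0.824, 1.33 and 2.01 CPM in CON livers, and these ranges were nearly the same (log2 fold change 0.13 ± 0.35, adjusted p = 0.902 by edgeR).

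Hsph1, which recharges HSP70 with ATP, had 46.4, 61.4 and 77.5 CPM (lowest, median, highest) in MR livers, against 28.0, 45.5 and 54.5 CPM in CON livers. All 6 MR libraries lay above the CON mean and the groups overlapped (log2 fold change 0.51 ± 0.16, adjusted p = 0.119 by edgeR). Hspa8, the constitutive form, had 27.4, 38.3 and 50.4 CPM in MR livers, against 30.9, 32.6 and 38.4 CPM in CON livers, with a log2 fold change of 0.25 ± 0.14 (adjusted p = 0.419 by edgeR). Hsp90aa1, Dnajb1 and Hspd1 had log2 fold changes of -0.03, 0.06 and 0.02 in liver, each smaller than its standard error.

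**Figure D2:**
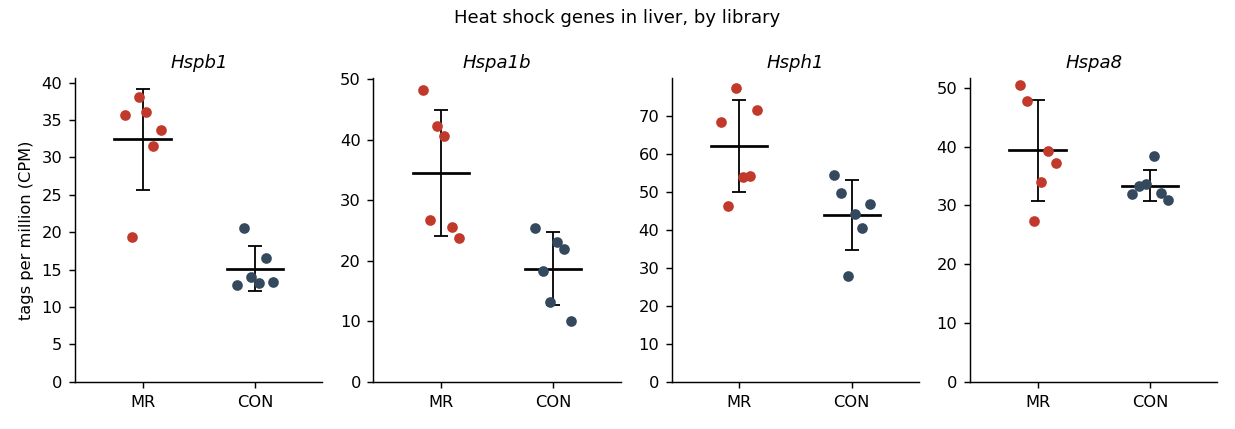
Level (CPM) of Hspb1, Hspa1b, Hsph1 and Hspa8 in each liver library, MR left and CON right, with the group mean (line) and SD (bar). For Hspb1, 5 of 6 MR libraries lie above all CON libraries, and for Hspa8 the groups overlap.

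The promoters of the 3 liver genes with an unadjusted p under 0.05 are shown because heat shock factors bind paired units there. The windows are RefSeq sequences of the GRCm38.p6 build, 250 bases before and 50 bases after the start site, and capitals mark matches to GAANNTTC or TTCNNGAA, each of which reads the same on both strands. Hspb1 is at chr5:135887669-135887968 on the plus strand, Hspa1b at chr17:34959189-34959488 on the minus strand and Hsph1 at chr5:149636287-149636586 on the minus strand.
Hspb1: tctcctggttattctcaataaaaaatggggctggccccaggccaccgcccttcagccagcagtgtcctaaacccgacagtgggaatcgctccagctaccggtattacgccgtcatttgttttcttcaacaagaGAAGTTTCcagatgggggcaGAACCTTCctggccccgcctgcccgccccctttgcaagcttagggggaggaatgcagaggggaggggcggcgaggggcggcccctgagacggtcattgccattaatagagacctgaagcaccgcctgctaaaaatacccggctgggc
Hspa1b: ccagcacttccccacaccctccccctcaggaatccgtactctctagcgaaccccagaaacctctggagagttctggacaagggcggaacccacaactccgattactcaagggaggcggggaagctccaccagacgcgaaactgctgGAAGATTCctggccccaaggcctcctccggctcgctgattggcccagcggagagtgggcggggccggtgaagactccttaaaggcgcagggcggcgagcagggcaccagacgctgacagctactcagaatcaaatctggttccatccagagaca
Hsph1: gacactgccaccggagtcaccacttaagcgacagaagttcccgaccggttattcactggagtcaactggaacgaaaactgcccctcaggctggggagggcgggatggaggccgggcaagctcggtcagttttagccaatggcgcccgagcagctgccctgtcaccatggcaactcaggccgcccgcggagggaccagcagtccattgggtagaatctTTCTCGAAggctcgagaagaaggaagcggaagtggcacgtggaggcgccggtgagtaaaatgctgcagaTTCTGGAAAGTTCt
Hspb1 held 2 matches to GAANNTTC, beginning 117 and 97 bases before the start site. Hspa1b held 1, beginning 104 bases before it, and Hsph1 held 1 match to GAANNTTC that overlaps 1 of its 2 matches to TTCNNGAA, just after the start site. Of 27025 promoters of that length, 7.95% held GAANNTTC and 8.4% held TTCNNGAA, and 0.529% held 1 of each that overlap and share the middle unit, as in Hsph1. Promoter windows matched 8 of the 10 members, all but Hspa8 and Hsp90aa1, and those of Dnajb1, Hspd1, Mt1 and Mt2 held neither pair.

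The promoters of Hspa1a and Hspa1b were identical at 296 of 300 bases. With the Hspa1b base first and positions counted from 1 at the 5′ end of the window, the differences were T44C, C47T, G249T and T276C, none of them in the GAANNTTC match. The pair's tags were divided differently between tissues. Hspa1b gave 95.6% ± 2.21 of the pair's tags in MR livers and 92.8% ± 2.41 in CON livers (SD, n = 6 each). It gave 47.8% ± 10.5 in MR muscle (n = 5) and 37.3% ± 6.76 in CON muscle (n = 6). In IWAT the share was 56.9% ± 16.4 in MR and 68.8% ± 3.72 in CON, and in BAT it was 42.3% ± 15.2 in MR and 52.6% ± 18.1 in CON (SD, n = 6 each). The lowest share in any liver library was 88.8% and the highest in any muscle library was 57.1%, so these tissues did not overlap. The shares are not tested between diets, and they include the 4 libraries that stand apart. In muscle MR3101 was at 57.1%, and the other MR libraries were at 29.8% to 52.0%. In IWAT MR3116 was at 76.5%, and the other MR libraries were at 40.0% to 76.9%. There CON3106 and CON3115 were at 64.5% and 69.5%, and the other CON libraries were at 66.7% to 75.0%. Exact 95% binomial intervals, which cover counting error only, are drawn for each library.

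**Figure D3:**
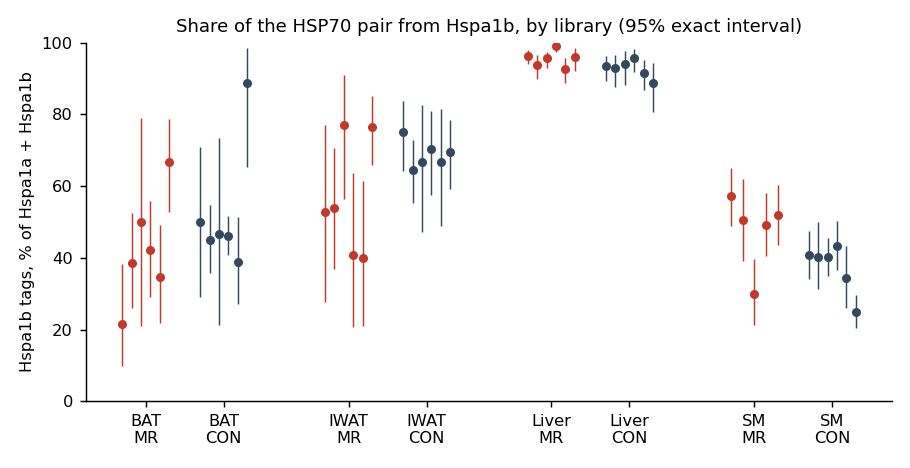
Share of Hspa1a plus Hspa1b tags that came from Hspa1b, in percent, for each library by tissue, MR left of CON, with the exact 95% binomial interval. Liver libraries sit between 88.8% and 99.0%, and muscle libraries between 24.9% and 57.1%. The libraries that stand apart are drawn like the others, and the highest muscle value is MR3101, one of them.

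The pair was also measured in muscle, where neither gene passed. Hspa1a was at 13.7, 5.01, 7.52, 5.23 and 6.86 CPM in MR muscle (MR3101, MR3102, MR3104, MR3109 and MR3116), against 8.35, 12.8 and 26.1 CPM (lowest, median, highest) in CON muscle. The groups overlap only through MR3101, one of the libraries that stand apart. The log2 fold change was -0.96 ± 0.41 (unadjusted p = 0.0345, adjusted p = 0.764 by edgeR's quasi-likelihood test over all genes), and without MR3101 it was -1.28 ± 0.34 (unadjusted p = 0.00234, adjusted p = 1 by edgeR). Hspa1b, at -0.14 ± 0.47 with all muscle libraries, was at -0.72 ± 0.34 without it. In IWAT Hspa1b was at 1.10, 1.87 and 12.1 CPM (lowest, median, highest) in MR animals, against 1.72, 6.54 and 12.6 CPM in CON animals, and the highest MR value is again a library that stands apart, MR3116. Its log2 fold change was -0.86 ± 0.68 with all 12 libraries and -1.38 ± 0.46 (adjusted p = 0.181 by edgeR) without the 3 that stand apart. Leaving out 1 library gave -1.97 without MR3116 and -0.50 without CON3106, the ends of the range, and none of these passed.

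In BAT Hspa1a had 0.862, 3.76 and 4.47 CPM in MR animals, against 0.308, 2.57 and 14.1 CPM in CON animals, and Hspa1b had 0.862, 2.39 and 5.38 CPM in MR animals, against 0.887, 2.83 and 12.1 CPM in CON animals. The highest value of both genes was in CON3112. The summed level of 10 skeletal muscle markers in BAT was 370 to 7674 CPM in MR libraries and 96.9 to 18805 CPM in CON libraries, highest in the same CON3112, with none of the 10 markers at 0; their part in the result was not tested. Without CON3112 the log2 fold change of Hspa1a was 0.31, against -0.51 ± 0.67 with it.

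The variation of Hspa1a with Hspa1b from library to library was measured within each tissue. Over the 12 BAT libraries, after removal of the diet means, Pearson's r was 0.71 and Spearman's rho 0.72 (permutation p = 0.00931 and 0.011, adjusted p for r = 0.0745 over 8 relations), and r was 0.71 without the 2 libraries farthest from the median. In liver r was 0.13 and rho 0.28 (n = 12, permutation p = 0.695 and 0.378). Without the libraries that stand apart, r was 0.47 and rho 0.50 in IWAT (n = 9, exact permutation p = 0.207 and 0.178), and 0.56 and 0.52 in muscle (n = 10, permutation p = 0.0919 and 0.135). For Hsp90aa1 with Hspa8, r lay between -0.64 in muscle and 0.08 in BAT, and none of these 8 relations passed at an adjusted p under 0.05. With the libraries that stand apart included, r of Hspa1a with Hspa1b was 0.79 in IWAT (rho 0.71, permutation p = 0.00181 and 0.0115, adjusted p for r = 0.0116) and 0.73 in muscle (rho 0.63, permutation p = 0.0103 and 0.0445, adjusted p for r = 0.0206). That of Hsp90aa1 with Hspa8 was 0.86 in IWAT (rho 0.62, permutation p = 0.00291 and 0.0349, adjusted p for r = 0.0116) and 0.87 in muscle (rho 0.64, permutation p = 0.016 and 0.0403, adjusted p for r = 0.0256). These 4 relations passed with those libraries, 3 in IWAT and MR3101 alone in muscle, and not without them. In muscle, r of Hsp90aa1 with Hspa8 was 0.36 without the 2 libraries farthest from the median of Hsp90aa1, and -0.64 without MR3101. The diet means removed still held those 2 libraries for the 0.36, and were taken without MR3101 for the -0.64. The 2 values therefore cannot be compared. With diet means left in, r was -0.53 without the 2 farthest libraries.

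Mt2, the metallothionein that SAGE could measure, had its widest diet difference by the estimate in brown fat. It was at 139, 309 and 470 CPM (lowest, median, highest) in MR BAT, against 53.7, 112 and 241 CPM in CON BAT. All 6 MR libraries lay above the CON mean, and CON3107 lay within the MR range. The log2 fold change was 1.33 ± 0.37 (SE), with an unadjusted p of 0.00288 and an adjusted p of 0.125 by edgeR. DESeq2 gave an adjusted p of 0.0145. Leaving out each of the 12 libraries gave 1.16 to 1.66, with adjusted p between 0.0425 and 0.229 by edgeR. Only the fit without CON3107 passed (0.0425). In the fit of all 47 libraries the log2 fold change was 1.34 ± 0.56 and did not pass (adjusted p = 0.386 by edgeR). The summed level of 8 brown adipocyte markers was 5494 to 9380 CPM in MR BAT and 3419 to 6588 CPM in CON BAT, and 3 of the 8 (Dio2, Elovl3 and Kcnk3) were higher by the same test; their part in the Mt2 values was not tested.

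In liver Mt2 was at 10.8, 12.9 and 17.7 CPM in MR animals, against 4.68, 8.05 and 51.9 CPM in CON animals. The CON range was the wider one, with CON3107 at its top, and the log2 fold change was -0.22 ± 0.49 with that library and 0.63 without it (adjusted p = 0.879 and 0.403 by edgeR). In muscle Mt2 was at 143 CPM in MR3101 and at 12.5 to 26.0 CPM in the other 4 MR animals, against 15.3, 28.5 and 44.1 CPM in CON animals. Its log2 fold change in muscle was 0.71 ± 0.61 with MR3101 and -0.55 ± 0.31 without it. In IWAT Mt2 was at 266 CPM in MR3116 and at 35.9 to 79.2 CPM in the other 5 MR animals, against 157 and 136 CPM in CON3106 and CON3115 and 21.4 to 78.5 CPM in the other 4 CON animals. Without those 3 libraries its log2 fold change was 0.08 ± 0.35.

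**Figure D4:**
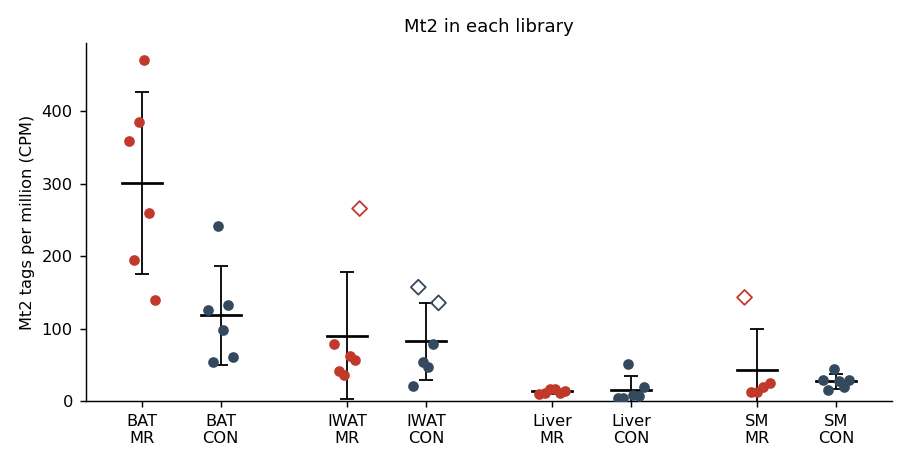
Mt2 level (CPM) in each library by tissue, MR left of CON, with the group mean (line) and SD (bar); open diamonds are the 4 libraries that stand apart. BAT holds the highest values, up to 470 CPM in MR, and the diamonds are the highest Mt2 values of IWAT and muscle.

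The libraries that stand apart differed from the others in most members. In the 3 IWAT libraries Hspb1 was at 0.557 to 4.60 CPM, against 29.3 to 66.9 CPM in the other 9, Hspa8 at 0 to 0.557 CPM, against 4.26 to 11.1 CPM, and Hsp90aa1 at 3.15 to 11.2 CPM, against 26.6 to 56.5 CPM. Dnajb1 had no tag in any of the 4 libraries. Hspd1 was at 788 to 2437 CPM in these 3 IWAT libraries, against 294 to 864 CPM in the other 9, so that CON3115 lay within the range of the others. In muscle of MR3101 Hspb1 was at 0.416 CPM, against 107 to 257 CPM in the other 10 muscle libraries, and Hspd1 at 861 CPM, against 219 to 372 CPM. Hsph1 overlapped with the other libraries, at 28.1 to 37.5 CPM in the 3 IWAT libraries, against 19.4 to 32.8 CPM in the other 9. The number of genes with a tag was 11917 in IWAT MR3116, 12690 and 13575 in the 2 CON libraries and 11144 in muscle of MR3101. Without these libraries the diet difference of Hspb1 was 0.14 ± 0.29 in IWAT and -0.32 ± 0.20 in muscle (log2, MR over CON), against 0.44 ± 0.86 and -0.65 ± 0.75 with them, and neither setting gave a called member.

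**Figure D5:**
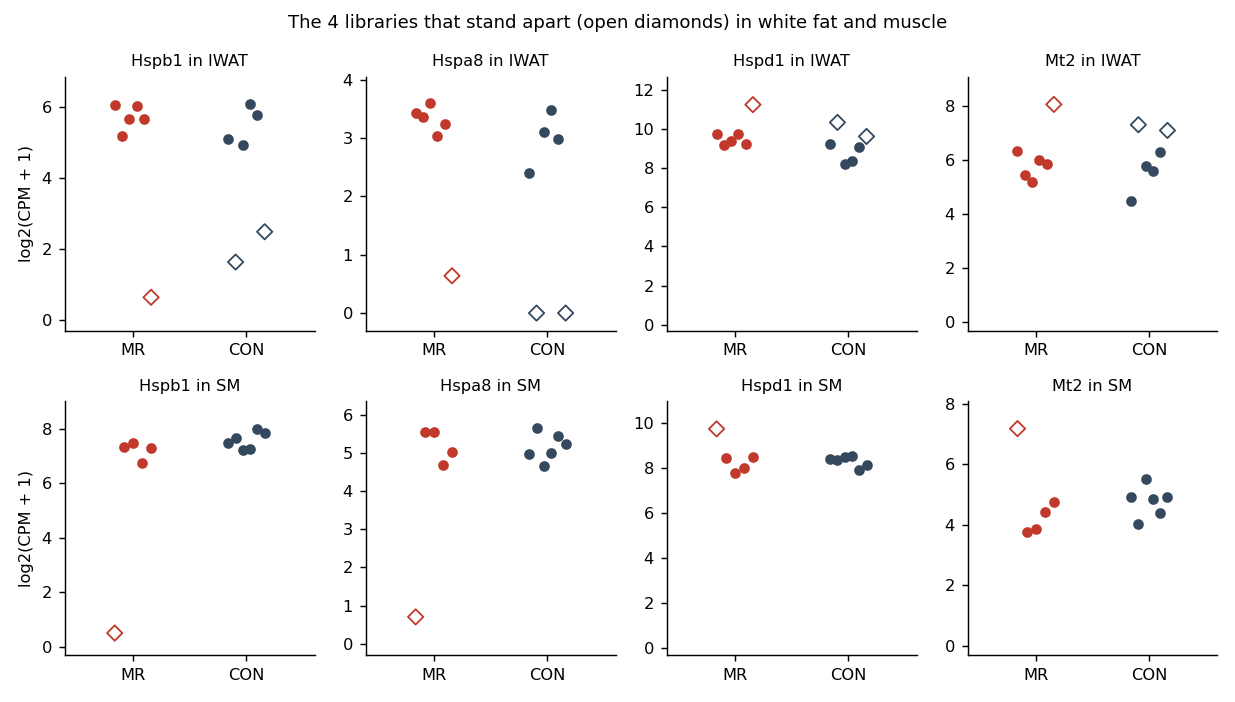
Level of Hspb1, Hspa8, Hspd1 and Mt2 on the log2(CPM + 1) scale in each IWAT (top) and muscle (bottom) library, MR left of CON; open diamonds are the 4 libraries that stand apart. In these libraries Hspb1 and Hspa8 lie far below the others of the tissue and Mt2 lies above them, and in IWAT they belong to both diets.

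Whether the diet difference itself varied between tissues was tested as an interaction in the fit of all 47 libraries, and no member passed. The test across the 4 tissues called 0 of 9 members, where 0.524% of 13541 genes were called, and 0 members had an unadjusted p under 0.05. Pair by pair, 0 of 9 members passed for IWAT minus BAT, liver minus BAT, muscle minus BAT, liver minus IWAT, muscle minus IWAT and muscle minus liver, where 0.0517%, 0.103%, 0%, 0.591%, 0.436% and 0.0295% of genes were called. At an unadjusted p under 0.05 there were 2 members for liver minus BAT, 1 for liver minus IWAT and 0 in the other pairs, and limma voom called 0 members in every pair. Hspb1 differed by -1.78 ± 0.89 between muscle and liver (log2 diet difference in muscle minus that in liver, adjusted p = 0.629 by edgeR). Without the 4 libraries that stand apart, a setting chosen after the data were seen, the difference was -1.45 ± 0.30 with an adjusted p of 0.0255, and 0.124% of 13751 genes were called in that contrast. Hspa1b differed by 1.78 ± 0.76 between liver and IWAT (adjusted p = 0.479), and it passed (2.91, adjusted p = 0.0455 by edgeR) when MR3116 was left out of all tissues, where 0.678% of 13709 genes were called. No other animal left out gave a pass of Hspa1b in this contrast. Without the 4 libraries that stand apart, its liver minus IWAT difference was 2.18 ± 0.67 and did not pass (adjusted p = 0.0926 by edgeR). Mt2 differed by -1.57 ± 0.79 between liver and BAT (adjusted p = 0.784).

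The tissues also differed in these genes on the control diet. Without the 4 libraries that stand apart, Hspb1 was highest in muscle, at 194 ± 42.7 CPM in CON muscle, 120 ± 20.3 CPM in CON BAT, 45.9 ± 17.8 CPM in CON IWAT and 15.1 ± 3.01 CPM in CON liver (SD; n = 6, 6, 4 and 6), and each neighbouring step in that order passed in the joint edgeR test. The smallest step, muscle over BAT, had a log2 difference of 0.69 ± 0.19 and an adjusted p of 0.00254, and with the 4 libraries the same difference of 0.69 ± 0.61 did not pass (adjusted p = 0.383). The step between liver and IWAT was also lost with the 4 libraries, at -1.07 ± 0.62 for liver over IWAT (adjusted p = 0.149), against -1.59 ± 0.22 without them (adjusted p = 5.56e-08 by edgeR). Hsp90aa1 was highest in BAT, at 117 ± 24.3 CPM, followed by CON liver at 69.6 ± 24.4 CPM, CON IWAT at 33.99 ± 8.90 CPM without the 2 CON libraries that stand apart, and CON muscle at 21.9 ± 4.05 CPM (SD; n = 6, 6, 4 and 6). Without the 4 libraries each neighbouring step passed by edgeR: the log2 difference was -0.73 ± 0.23 for liver over BAT (adjusted p = 0.00634), 1.05 ± 0.27 for liver over IWAT (adjusted p = 0.00107) and -0.63 ± 0.26 for muscle over IWAT (adjusted p = 0.0327). With them the step between liver and BAT had an adjusted p of 0.16 and that between muscle and IWAT 0.711, and neither passed. Hspd1 was at 1057 ± 143 CPM in CON liver and 1048 ± 219 CPM in CON BAT, which did not differ beyond their spread (log2 difference 0.01 ± 0.32, adjusted p = 0.981 by edgeR), at 446 ± 156 CPM in the 4 remaining CON IWAT libraries, and at 320 ± 50.9 CPM in CON muscle (log2 difference, muscle over liver, -1.72 ± 0.33, adjusted p = 1.78e-05). Both tests were with all libraries. In that fit IWAT over BAT, at -0.70 ± 0.32, and liver over IWAT, at 0.71 ± 0.32, did not pass (adjusted p = 0.0871 and 0.0626 by edgeR). They passed without the 4 libraries, at -1.23 ± 0.22 and 1.26 ± 0.22 (adjusted p = 4.12e-05 and 7.53e-06 by edgeR).

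Mt2 was highest in BAT, at 119 ± 68.3 CPM, followed by 50.5 ± 23.5 CPM in the 4 remaining CON IWAT libraries, 27.6 ± 9.87 CPM in CON muscle and 16.2 ± 18.3 CPM in CON liver (SD; n = 6, 4, 6 and 6). Over the same libraries the log2 difference of IWAT over BAT was -1.22 ± 0.48 (adjusted p = 0.0423 by edgeR), whereas with all libraries it was -0.52 ± 0.56 and did not pass (adjusted p = 0.487). Muscle over IWAT passed with all libraries (-1.58 ± 0.57, adjusted p = 0.0181) and not without the 4 (-0.88 ± 0.46, adjusted p = 0.096). With all libraries its log2 difference was -2.10 ± 0.58 for muscle over BAT (adjusted p = 0.00303) and -2.87 ± 0.60 for liver over BAT (adjusted p = 8.43e-05), while muscle over liver, at 0.77 ± 0.56, did not pass (adjusted p = 0.251 by edgeR). Hspa1a was higher in CON muscle than in CON liver by 3.47 ± 0.57 (log2, adjusted p = 1.17e-06), whereas Hspa1b was lower in muscle by the estimate, at -1.07 ± 0.53, and did not pass (adjusted p = 0.0816 by edgeR). That difference of Hspa1b passed without the 4 libraries that stand apart, at -1.08 ± 0.41 (adjusted p = 0.01945 by edgeR). Hsph1 was highest in CON muscle, at 80.9 ± 13.7 CPM, with 44.0 ± 9.14 CPM in CON liver and 43.5 ± 11.2 CPM in CON BAT, and Dnajb1 was lowest in CON muscle, at 2.31 ± 0.607 CPM, with 12.1 ± 3.95 CPM in CON liver and 8.72 ± 3.79 CPM in CON BAT (SD, n = 6 each). Hspa8 was at 36.1 ± 9.13 CPM in CON muscle, 33.4 ± 2.64 CPM in CON liver and 23.0 ± 6.94 CPM in CON BAT (SD, n = 6 each). In the 4 remaining CON IWAT libraries these genes were at 23.8 ± 6.09, 8.70 ± 2.14 and 7.23 ± 2.44 CPM, in the order Hsph1, Dnajb1 and Hspa8. By edgeR with all libraries, muscle over liver was 0.88 ± 0.20 (log2) for Hsph1 (adjusted p = 0.0002) and -2.38 ± 0.66 for Dnajb1 (adjusted p = 0.00199), whereas Hspa8 at 0.11 ± 0.57 did not pass (adjusted p = 0.88). With all libraries, 4 of 9 members passed for IWAT over BAT, 4 for liver over BAT, 6 for muscle over BAT, 5 for liver over IWAT, 6 for muscle over IWAT and 6 for muscle over liver, where 33.4%, 47.9%, 40.9%, 49.7%, 52.5% and 56.8% of genes passed. These shares of the members are near those of all genes in most pairs.

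In liver, the listed genes of the same pathways are read against the 2.26% of all genes called and the 14.5% with an unadjusted p under 0.05. Of 28 tested cytosolic chaperones and co-chaperones in liver, 0 passed by edgeR in either direction and 3 had an unadjusted p under 0.05, with 22 above 0 and a median log2 fold change of 0.10 (all genes 0.01, 51.5% above 0), and of the 8 subunits of the TRiC chaperonin, which folds actin and tubulin, 0 passed and 1 had an unadjusted p under 0.05, with 7 above 0. Among 4 tested heat shock factor genes in liver, 1 (25% of the list) rose: Hsf2, a heat shock factor, was at 61.0 ± 8.91 CPM in MR livers and 44.4 ± 4.32 CPM in CON livers (SD, n = 6 each; log2 fold change 0.47 ± 0.11, adjusted p = 0.034 by edgeR). Among 18 tested genes of zinc transport and metal response in liver, 1 rose and 1 fell (11.1% of the list). Slc39a4, which carries zinc into cells, was at 36.6 ± 11.6 CPM in MR livers and 12.9 ± 2.56 CPM in CON livers (log2 fold change 1.52 ± 0.19, adjusted p = 0.000448 by edgeR). Slc39a11, another zinc carrier, was at 56.3 ± 5.93 CPM in MR livers and 85.2 ± 18.6 CPM in CON livers (log2 fold change -0.58 ± 0.14, adjusted p = 0.0436 by edgeR).

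Of all genes tested by edgeR, 1.11%, 0.027% and 0% were called in BAT, IWAT and muscle. Those with an unadjusted p under 0.05 were 13.6%, 8.78% and 6.32%. In BAT 1 of 30 tested cytosolic chaperones fell: Hspa12a, a distant relative of HSP70, was at 0.536 ± 0.208 CPM in MR and 2.52 ± 0.642 CPM in CON (log2 fold change -2.24 ± 0.30, adjusted p = 0.00308 by edgeR). Its MR level is near the floor, as 3 counts correspond to 0.352 to 0.431 CPM in MR BAT libraries. Of 7 other small heat shock protein genes in BAT, 0 passed and 0 had an unadjusted p under 0.05 by edgeR, with 1 above 0 and a median log2 fold change of -0.57. Their summed level was 80.5 to 250.6 CPM in MR BAT and 75.4 to 634 CPM in CON BAT, highest in CON3112 (634 CPM) and CON3114 (470 CPM). These are also the BAT libraries with the most skeletal muscle marker signal, at 18805 and 9715 CPM. Of the 10 muscle markers, 0 had a log2 fold change above 0 (median -0.77), whereas their median summed level was 3462 CPM in MR BAT and 1500 CPM in CON BAT. Their part in the values of this list was not tested. In IWAT 0 of 11 mitochondrial chaperones and proteases passed by edgeR and 3 had an unadjusted p under 0.05, with 10 above 0 and a median log2 fold change of 0.81 (all genes -0.02). Hspa9, the mitochondrial HSP70, was at 601 ± 196 CPM in MR and 270 ± 122 CPM in CON there (log2 fold change 1.13 ± 0.35, adjusted p = 0.266 by edgeR), and its partner Hspd1 was at 577, 764 and 2437 CPM (lowest, median, highest) in MR, against 294, 578 and 1296 CPM in CON. The log2 fold change of Hspd1 was 0.64 ± 0.48 with all IWAT libraries, 0.015 without MR3116, 1.01 without CON3106 and 0.62 ± 0.26 without the 3 that stand apart (adjusted p = 0.294 by edgeR). Without those 3, 0 of the 11 mitochondrial genes passed, where 0% of 11624 genes passed. At an unadjusted p under 0.05 there were 6 of them, against 15.7% of all genes. All 11 were above 0 with a median of 0.62. Hspa9 was then at 665 ± 133 CPM in MR (n = 5) and 308 ± 111 CPM in CON (n = 4; SD; log2 fold change 1.05 ± 0.27, adjusted p = 0.102 by edgeR's test over all genes). The summed level of the 8 brown adipocyte markers in IWAT was 1305 to 3777 CPM in MR and 106 to 1069 CPM in CON, and its part in these values was not tested. In muscle 0 of 30 cytosolic chaperones and 0 of 7 small heat shock proteins passed by edgeR, and 2 and 0 of them had an unadjusted p under 0.05. Without MR3101 the counts were again 0 and 0, where 0% of 11395 genes passed. At an unadjusted p under 0.05 there were then 1 and 1, against 3.22% of all genes.

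Of 14 listed acute phase genes, 11 were tested in liver. There 1 rose and 2 fell (27.3% of those tested), against 2.26% of all genes called. Saa1, serum amyloid A, was at 1.14 ± 0.771 CPM in MR livers and 6.96 ± 6.89 CPM in CON livers (adjusted p = 0.0414 by edgeR), Orm1, an acid glycoprotein, at 5.87 ± 2.26 CPM in MR livers and 17.7 ± 2.51 CPM in CON livers (adjusted p = 0.00124), and Lbp, which binds lipopolysaccharide, at 190 ± 37.2 CPM in MR livers and 106 ± 33.3 CPM in CON livers (adjusted p = 0.0273). None of 17 tested immediate early genes and none of 12 glucocorticoid responsive genes passed in liver by edgeR. Of them 4 and 1 had an unadjusted p under 0.05, against 14.5% of all genes. Among marker lists of other cell types in liver, the summed level of 10 muscle markers was 21.3 to 1338 CPM in MR and 23.5 to 856 CPM in CON, that of 8 endothelial markers 118 to 166 CPM in MR and 118 to 136 CPM in CON, and that of blood markers 57.3 to 116 CPM in MR and 97.3 to 161 CPM in CON. None of these lists had a called gene in liver, and their part in the Hspb1 difference was not tested.

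Over all 47 libraries, after removal of the mean of each tissue and diet, the genes most like Hsph1 were St13 (Pearson r = 0.66) and Dnaja1 (r = 0.65), both co-chaperones, and Smc6 (r = 0.62). For Hspd1 they were Fdx1 (r = 0.93), Mtx2 (r = 0.93) and Tfg (r = 0.93), and for Mt2 LOC100045796, Tmeff1 and Tspan3 (r = 0.82 each). For Hspa1a they were Kcnj2 (r = 0.83), Pkia (r = 0.81) and Nexn (r = 0.80), and for Hspa1b Svil, Tead1 and LOC100504883 (r = 0.78, 0.78 and 0.75). For Hspb1 they were Ptrf, Gnl2 and Mfn2 (r = 0.99, 0.98 and 0.98), for Hspa8 Mgat4b, Ubfd1 and Atg2b (r = 0.98, 0.97 and 0.97), for Hsp90aa1 Dkc1, 2310001A20Rik and Eif3c (r = 0.93 each) and for Dnajb1 Map3k11, Hdac1 and Tcfe3 (r = 0.97, 0.97 and 0.96). These are descriptions across libraries that share the 4 that stand apart. Without those 4, the r of Hspb1 with Ptrf was 0.59 and that of Hspb1 with Gnl2 was 0.38, while Hsph1 with St13 was 0.69 and Hspd1 with Fdx1 was 0.86.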

How the data were processed

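SAGE libraries of total RNA (up to 12 ng each) were sequenced on the SOLiD 4 system, per the labels' protocols. The authors deposited whole-number tag counts per gene for each tissue, and a second table per tissue of counts scaled by DESeq, a normalized signal, per the file headers. Builds mm10 and GRCm38.p1 and the tool DESeq are named in the submitters' processing notes; no source used here names the aligner, the counter or its use of strand. Libraries were mapped to samples by column name, and 0 columns belonged to samples outside the series. The muscle table holds 25 gene symbols turned into dates, so that 26583 symbols were shared by all 4 tables.

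The main test was edgeR 4.0.16 (R 4.3.3) on the deposited counts: genes kept by filterByExpr (minimum count 10), TMM factors, the quasi-likelihood F test with MR over CON within each tissue, and Benjamini-Hochberg adjustment at 0.05. A standard error is the log2 fold change over the square root of F. Tissues and interactions were fitted on all 47 libraries with 8 group means (13541 genes). Alternatives were DESeq2 1.42.0, upper-quartile factors, no filter, a minimum count of 50, limma 3.58.1 on the authors' normalized values with a pseudocount of 1 or 10, leaving out libraries, and limma with the animal as a block. The scripts were tested on simulated data. Correlations used 100000 permutations, or all of them under 10 libraries. In IWAT and muscle they leave out the 4 libraries that stand apart, because the gene ranks of these differ from the rest of their tissue.

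The tissues come from the same animals, which pairs the libraries by number. Deviations from group means correlated by -0.08 to 0.06 on average between tissues. No 2 libraries were identical, and pairs within a group differed by at least 13.1 times the sampling noise (chi-square per degree of freedom). The members and lists were chosen with earlier results of these data known, and no p was adjusted over the members alone. The named genes are the 10 members, up to 4 called genes per list and tissue with the smallest p, and the 3 genes most correlated with each member; Hspa9 was added after its values were seen.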

Additional observations from a re-analysis of the deposited data

Results flagged for a closer look

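Each group of 5 or 6 libraries was checked for a value far from the others on the log2(CPM + 1) scale, in 72 groups of the 9 measured genes; chance alone flags about 1 group in 20. There were 13 such values, and 9 of them came from libraries that stand apart.

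In IWAT of MR3116, Dnajb1 was at 0 CPM with the nearest other MR library at 6.36 CPM, Hsp90aa1 at 3.15 CPM (nearest 26.6), Hspa8 at 0.557 CPM (nearest 7.2) and Hspb1 at 0.557 CPM (nearest 35.7), all low, while Hspa1b at 12.1 CPM (nearest 2.7) and Hspd1 at 2437 CPM (nearest 864) were high. In muscle of MR3101, Hsp90aa1 was at 1.87 CPM (nearest 15.2), Hspa8 at 0.625 CPM (nearest 24.8) and Hspb1 at 0.416 CPM (nearest 107), all low.

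In liver, Hspb1 of MR3102 was low at 19.4 CPM (nearest 31.6), Dnajb1 of MR3109 was low at 8.88 CPM (nearest 12.4), and Hspd1 of CON3103 was high at 1342 CPM (nearest 1035). In BAT, Hspa1a of MR3104 was low at 0.862 CPM (nearest 2.69). No interaction of a member with tissue passed with all libraries.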

How the results depend on the processing

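Hspb1 in liver passed under every alternative within the tissue and missed the threshold in the joint fit, where 0 members and 29 genes were called in liver and 41 in BAT. DESeq2 called 2 members and 490 genes in liver, 1 member (Mt2) and 317 genes in BAT, 310 genes in IWAT and 2 in muscle. In IWAT 3 genes were called by edgeR, against 6 with upper-quartile factors or the stricter filter, 12 with limma at either pseudocount, 446 in the joint fit and 0 without the 3 libraries that stand apart. For the interaction across the 4 tissues, 71 genes were called by edgeR, 158 with the replicate block (limma voom, animal as block, consensus correlation -0.03), 177 with limma voom without it, 39 with no filter and 259 without the 4 libraries that stand apart, which also gave 1 member across tissues and 1 for muscle minus liver (Hspb1). With the block, members called between tissues were 5, 3, 6, 7, 6 and 7 in the order given above, and no interaction of a member passed.

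Leaving out 1 library at a time gave 0 to 1 members (Mt2) and 50 to 111 genes in BAT, 0 to 41 genes in IWAT and 158 to 322 in liver. Leaving out 1 animal gave 23 to 847 genes for the interaction across tissues, with 0 to 1 members there and for liver minus IWAT (Hspa1b without MR3116). Log2 fold changes whose sign turned ranged as follows. In BAT Hspa1a ranged from -0.74 to 0.31, Hspa1b from -1.09 to 0.057, Hspa8 from -0.069 to 0.27 and Hspd1 from -0.051 to 0.14. In IWAT Dnajb1 ranged from -0.058 to 0.47 and Mt2 from -0.71 to 0.49. In liver Hsp90aa1 ranged from -0.13 to 0.10, Dnajb1 from -0.056 to 0.21, Hspd1 from -0.042 to 0.095 and Mt2 from -0.42 to 0.63. In muscle Hspa1b ranged from -0.72 to 0.092, Hspa8 from -0.43 to 0.093, Hsp90aa1 from -0.47 to 0.13, Hspd1 from -0.062 to 0.57 and Mt2 from -0.55 to 0.94. None of these was called. Without scaling factors the median log2 fold change over all genes was 0.18 in liver and -0.12 in IWAT, against 0.00 and 0.02 with TMM across all libraries.

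Signs also turned with limma at pseudocounts 1 and 10 for Hspa1a in BAT (0.26 and 0.029), Hsp90aa1 in liver (0.0067 and 0.0058), Mt2 in liver (0.33 and 0.27) and Dnajb1 in muscle (-0.45 and -0.011), with DESeq2 for Hspa1b in muscle (0.0055), and for Dnajb1 in IWAT without the 3 libraries together (-0.11). With all libraries, r of Hspa1a with Hspa1b was 0.79 in IWAT and 0.73 in muscle, and r of Hsp90aa1 with Hspa8 was 0.86 in IWAT and 0.87 in muscle, and all 4 then passed. Over the 9 IWAT libraries that do not stand apart, r of Hspa1a with Hspa1b was 0.47, and 0.72 without the 2 farthest of them; r of Hsp90aa1 with Hspa8 was -0.21, and 0.0103 with diet means left in. The cause of these changes was not tested, except that the settings which leave out libraries show which ones carry them. No correlation with Mt1 could be computed. Counting error limits Hspa1a and Hspa1b, which had under 10 counts in 9 and 5 libraries, none of them among the 4 that stand apart; Dnajb1 and Hspa8 had under 10 counts in those 4.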
